A study of Homo sapiens with 12 samples.

Results

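The genes described here are 38 genes that supply amino acids for protein synthesis: 20 cytosolic aminoacyl-tRNA synthetases, 5 enzymes of serine and one-carbon metabolism, 5 enzymes of asparagine, proline and cysteine synthesis, and 8 amino acid transporters. They were chosen by name from the normalized table, where 38 of 38 were found among 57820 genes. The rule itself used no measured value, but the list was chosen with earlier results of these data known. RNA was sequenced from 12 samples of HL60 cells, an established human line of promyelocytic leukaemia. These had been given an empty vector (EV, pRRL-EV-puro) or a vector for the S211A form of the transcription factor TFEB (pRRL-TFEBS211A-puro), which is switched on by doxycycline. Each transduced line was given vehicle or doxycycline, which made 4 groups of 3, named here EV vehicle and EV doxycycline for the empty vector line and TFEB vehicle and TFEB doxycycline for the other. The protocol given for every sample is doxycycline at 1 µg/ml for 48 h in medium with 10% fetal bovine serum, and the treatment label was taken as saying which samples received it. The design text calls the triplicates biologically independent experiments. Whether a line is a pool or 1 clone was not analysed here.

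Aminoacyl-tRNA synthetases join each amino acid to its transfer RNA, and a cell needs all of them to translate. Serine is made from a glycolytic intermediate by PHGDH, PSAT1 and PSPH, and SHMT2 and MTHFD2 pass its carbon to folate in mitochondria. ASNS makes asparagine, ALDH18A1 and PYCR1 make proline, and CBS and CTH make cysteine from homocysteine. Many of these genes are known targets of ATF4, a transcription factor whose translation rises when kinases of the integrated stress response, such as the amino acid sensor GCN2, phosphorylate the initiation factor eIF2. TFEB is known for binding E-box motifs near lysosomal genes.

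The sequences below are the places in the members' promoters that hold the letters TGATGNAA, the core by which ATF4 and its partners are known to recognise amino acid response genes, searched on both strands. They are shown because the members were chosen as ATF4 target classes. Promoter windows of RefSeq (GRCh38.p14, the 250 bases before each start) were matched for 30 of 38 members (43 windows). The letters were found in 5 of these 30 members (16.7%), against 3.89% of all 27305 genes with a window. Genes with more than 1 start have more than 1 window, and a match is a description of the letters only. Each line gives the strand of the gene from 5′ to 3′, with the match in capitals; where the match lies on the opposite strand its complement is shown.
AARS (matched as AARS1), chr16:70289675-70289704, minus strand, 187 bases before the start: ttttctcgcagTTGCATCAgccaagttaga
GARS (matched as GARS1), chr7:30594834-30594863, plus strand, 33 bases before the start: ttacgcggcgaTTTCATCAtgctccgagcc
IARS (matched as IARS1), chr9:92293698-92293721, minus strand, 13 bases before the start: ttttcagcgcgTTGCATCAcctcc
ASNS, chr7:97872458-97872487, minus strand, 68 bases before the start: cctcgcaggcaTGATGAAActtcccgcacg
SLC1A5, chr19:46784893-46784922, minus strand, 97 bases before the start: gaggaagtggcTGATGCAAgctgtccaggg

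The E-box letters CACGTG were found in 4 of the 30 matched members (13.3%), against 7.73% of all genes with a window. These were IARS, ALDH18A1, SLC7A5 and SLC1A5. The longer letters TCACGTGA, which contain that E-box, were found in 0 of the 30, against 1.04% of all genes. For SLC7A5 the stretch is chr16:87869621-87869648, minus strand, 130 bases before the start, gccggacgacgCACGTGctccgagctgg. Of the 5 members that hold TGATGNAA, GARS and ASNS rose in TFEB doxycycline against each control group on both scales described below, IARS did so only on the expressed-gene scale, and SLC1A5 and AARS passed the test within the TFEB line on neither. CARS, SARS, WARS and CTH, which also rose against each control group on both scales, hold neither set of letters in their windows.

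TFEB itself was measured first, as the check of the labels. Its deposited value was 79.8 to 196 in the 9 control libraries and 14470 to 22629 in the 3 TFEB doxycycline libraries. The libraries held 4474007 to 22488047 recovered reads, and mitochondrial genes took 13.3% to 33.1% of them. All 7 HL60 promyelocyte markers examined had a mean of at least 200, and their deposited values summed to 49257 to 95828 in TFEB vehicle and 10499 to 15050 in TFEB doxycycline. Within the TFEB line 3 of the 7 fell on the deposited scale and 5 on the expressed-gene scale explained below (limma), and 0 rose. Of all expressed genes, also defined below, 3.51% fell and 31.5% rose there on the deposited scale. On the expressed-gene scale 33.2% fell and 34.4% rose. None of the T cell, B cell, erythroid or megakaryocyte markers had a mean of 200. Of 4 monocyte and macrophage markers CSF1R and MARCO did, and their list summed to 7541 to 11523 in TFEB doxycycline against 309 to 841 in the other groups. Within the TFEB line 2 of these 4 rose and 1 fell, on the deposited and on the expressed-gene scale alike (limma). No marker was listed at 0 in every library. The part of these cell states in the results below was not tested.

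Values are read on 2 scales. The deposited scale is the authors' own. Library totals on it ran from 4012760 (EV doxycycline replicate 3, the fewest recovered reads) to 22302100 (EV vehicle replicate 2, the most). Values on this scale are thus not equalised for depth. On it, the median over 7290 nuclear genes whose mean value reached 200 (the expressed genes below) differed between groups by 0.73 (TFEB doxycycline against TFEB vehicle), 1.38 (against EV doxycycline) and -1.29 (EV doxycycline against EV vehicle) on the log2 scale. The expressed-gene scale divides each library by its median ratio over those genes, which puts these medians near 0, so it shows each gene relative to the other expressed genes. PSPH (mean 157) and SLC6A9 (mean 139) lie below 200 but were tested on both scales. A gene is said to rise or fall where limma gave a Benjamini-Hochberg adjusted p under 0.05, with the scale named. In these bulk samples a change in the number of cells of a type and a change in RNA per cell cannot be told apart.

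With TFEB S211A induced, 13 of 38 members rose and 1 fell against TFEB vehicle on the deposited scale (limma), where 17.4% of 23128 tested genes rose and 4.66% fell. Among the expressed genes alone 31.5% rose and 3.51% fell on that scale, so the members' count was close to this background. The members' median log2 change was 1.08, and 31 of 38 lay above 0. Relative to expressed genes 16 rose and 8 fell, where 34.4% of expressed genes rose and 33.2% fell, and the members' median was 0.33. Read against this background, the number of members that rose on that scale stood little above that of expressed genes in general. All 13 that rose on the deposited scale rose on the expressed-gene scale too: CARS, GARS, MARS, NARS, SARS, TARS, WARS, PSPH, ASNS, CTH, SLC7A5, SLC3A2 and SLC7A1. PYCR1 fell on both.

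**Figure D1:**
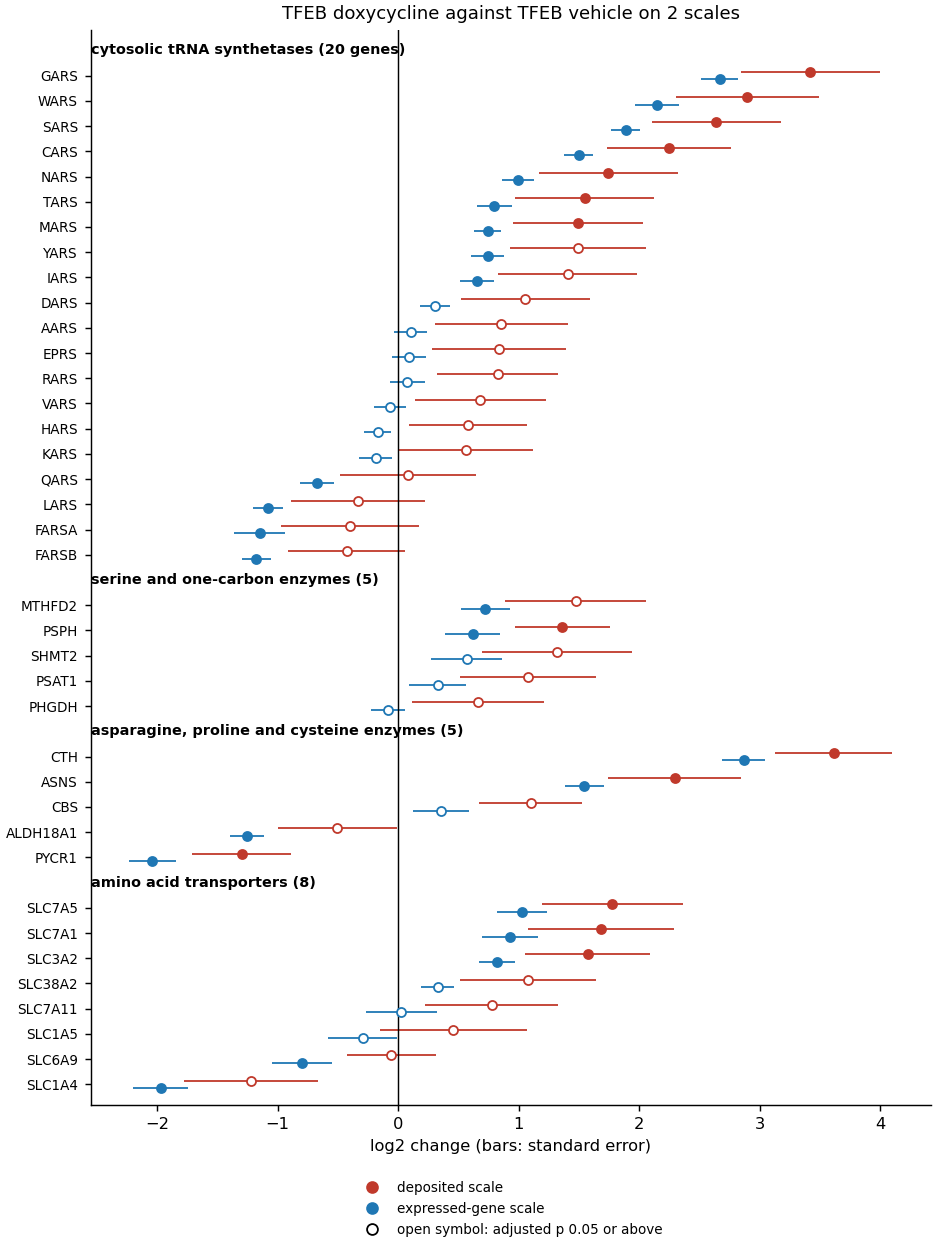
Log2 change of each of the 38 members in TFEB doxycycline against TFEB vehicle (x axis, bars are standard errors of the limma fit), by role, on the deposited and the expressed-gene scale; open symbols did not pass. CTH (3.62) and GARS (3.42) are highest and PYCR1 (-1.30) lowest on the deposited scale, and the bars are shorter on the expressed-gene scale.

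Against each of the 3 control groups at once, 6 members rose and 0 fell on the deposited scale, where 10.7% of tested genes rose and 1.35% fell. Among expressed genes 17.4% rose on that scale, so the count was not above that background. These were the synthetases CARS, GARS, SARS and WARS, and ASNS and CTH, and the 6 were called under each of 4 scalings (deposited, expressed-gene, equal nuclear totals and TMM). On the expressed-gene scale 14 rose and 5 fell against each control, where 29.5% of expressed genes rose and 27.1% fell. Those that rose there in addition were IARS, MARS, NARS, TARS, YARS, SLC7A5, SLC3A2 and SLC7A1, and those that fell were QARS, FARSB, ALDH18A1, PYCR1 and SLC1A4. The 3 TFEB doxycycline libraries lay above all 9 control libraries for 9 members and below them for 0 on the deposited scale, against 23.4% and 0.96% of expressed genes. With the expressed-gene scaling they lay above for 15 and below for 6, against 31.1% and 29% of expressed genes.

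Among the synthetases, GARS, which charges glycine tRNA in both cytosol and mitochondria, changed most. Its deposited value was 5755, 9101 and 4347 in EV vehicle, 2726, 1380 and 840 in EV doxycycline, 2467, 3807 and 4701 in TFEB vehicle, and 29403, 50255 and 36622 in TFEB doxycycline. The lowest TFEB doxycycline library was thus above the highest of the 9 others. GARS rose by 3.42 ± 0.58 (log2, SE, n = 3 per group) against TFEB vehicle on the deposited scale (limma adjusted p = 9.4e-06) and by 2.67 ± 0.15 on the expressed-gene scale, where the ratio of the group means was 6.36.

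WARS, the tryptophan enzyme, came next. Its deposited value was 6232, 10672 and 3894 in EV vehicle, 3096, 1579 and 668 in EV doxycycline, 2961, 5138 and 3905 in TFEB vehicle, and 27745, 35036 and 25334 in TFEB doxycycline. The TFEB doxycycline libraries did not overlap with any other group. WARS rose by 2.90 ± 0.59 on the deposited scale and by 2.15 ± 0.18 on the expressed-gene scale (log2, SE; limma adjusted p = 0.00019 and 7.4e-08).

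SARS, the serine enzyme, had deposited values of 935, 1829 and 766 in EV vehicle, 608, 375 and 175 in EV doxycycline, 410, 849 and 881 in TFEB vehicle, and 3574, 5205 and 4001 in TFEB doxycycline. Its values with TFEB induced were again above all others, and it rose by 2.64 ± 0.54 (deposited) and 1.89 ± 0.12 (expressed-gene). CARS, the cysteine enzyme, had deposited values of 828, 1377 and 620 in EV vehicle, 645, 394 and 237 in EV doxycycline, 442, 708 and 791 in TFEB vehicle, and 2321, 3979 and 2880 in TFEB doxycycline. CARS rose by 2.25 ± 0.52 (deposited) and 1.5 ± 0.12 (expressed-gene), and its TFEB doxycycline libraries overlapped with none of the others. The calls of GARS, WARS, SARS and CARS were kept in 12 of 12 fits that left out 1 library each, on both scales.

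The other cytosolic synthetases that rose changed less. NARS, MARS and TARS, the asparagine, methionine and threonine enzymes, rose by 1.74 ± 0.58, 1.49 ± 0.54 and 1.55 ± 0.57 on the deposited scale and by 0.99 ± 0.14, 0.74 ± 0.11 and 0.80 ± 0.14 on the expressed-gene scale. On the deposited scale the call was kept in 8 of 12 such fits for NARS and 4 of 12 for MARS and TARS, and on the expressed-gene scale in 12 of 12 for each. YARS and IARS, the tyrosine and isoleucine enzymes, were at 1.49 ± 0.56 (limma adjusted p = 0.051) and 1.41 ± 0.57 (limma adjusted p = 0.075) on the deposited scale and rose by 0.74 ± 0.14 and 0.66 ± 0.14 on the expressed-gene scale. On that scale NARS was 2609 to 3593 in TFEB vehicle and 5589 to 6295 in TFEB doxycycline, so its groups were well apart.

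Not all synthetases moved the same way relative to expressed genes. FARSA and FARSB, the subunits of the phenylalanine enzyme, were at -0.40 ± 0.57 and -0.43 ± 0.48 on the deposited scale, where neither passed, and fell by 1.15 ± 0.21 and 1.18 ± 0.12 on the expressed-gene scale. LARS, the leucine enzyme, was at -0.33 ± 0.56 on the deposited scale, which did not pass, and fell by 1.08 ± 0.13 on the expressed-gene scale. QARS, the glutamine enzyme, was at 0.08 ± 0.56 on the deposited scale, which did not pass, and at -0.67 ± 0.14 on the expressed-gene scale, where it fell. FARSB was 625 to 665 in TFEB vehicle and 275 to 294 in TFEB doxycycline on the expressed-gene scale, and its EV doxycycline range of 334 to 398 was also low. The remaining 7 synthetases (AARS, DARS, EPRS, HARS, KARS, RARS and VARS) passed on neither scale, with expressed-gene changes from -0.19 (KARS) to 0.30 (DARS). In all, 9 of 20 synthetases rose and 4 fell on the expressed-gene scale, where 34.4% of expressed genes rose and 33.2% fell. On the deposited scale 7 rose and 0 fell, where 31.5% of expressed genes rose and 3.51% fell, so that count of rises was close to the background.

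**Figure D2:**
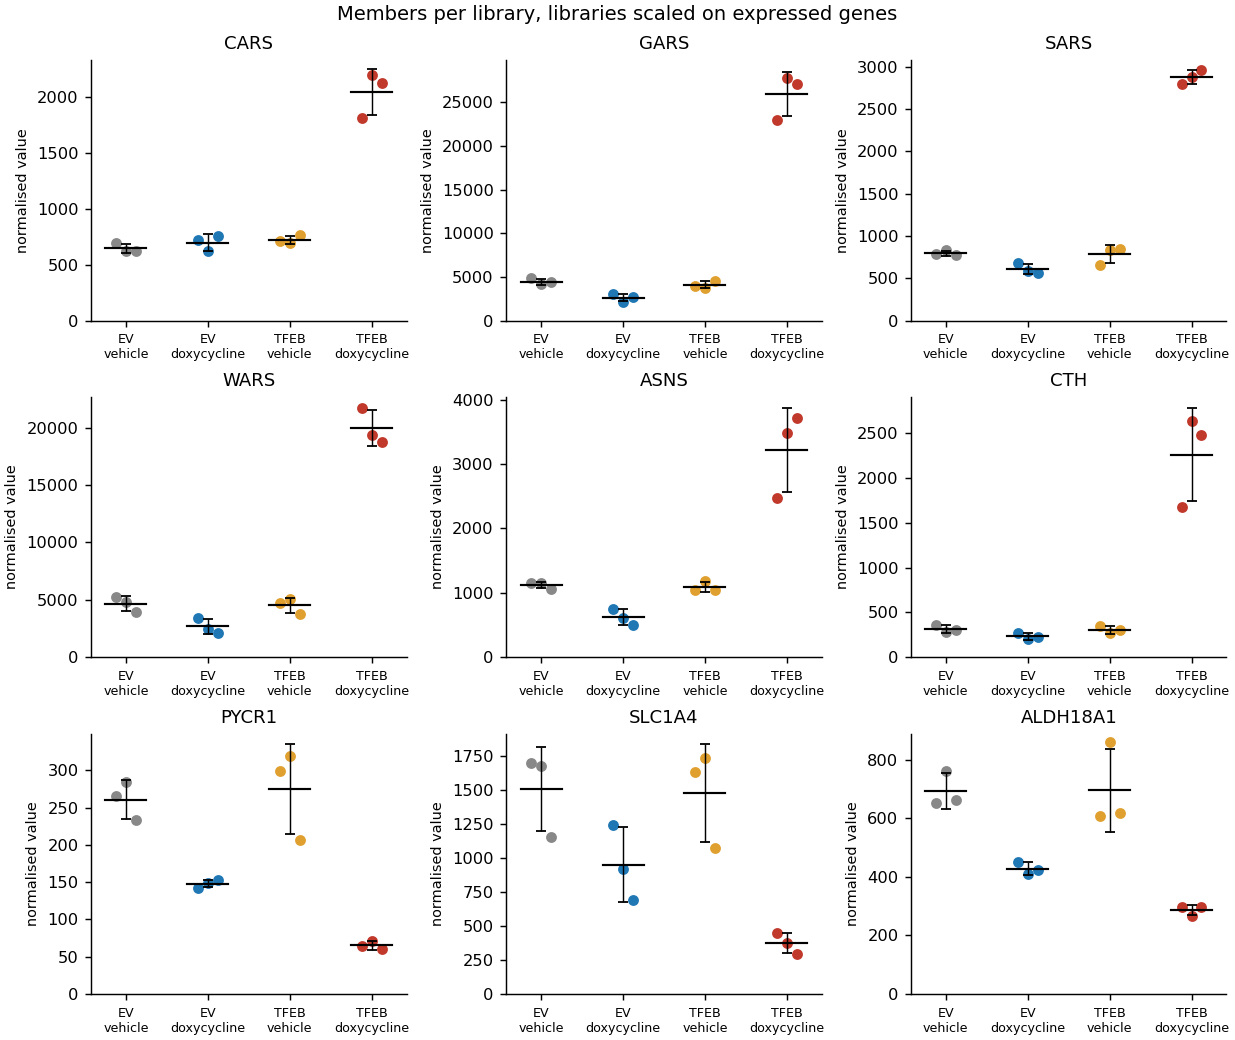
Expressed-gene-scaled value (y axis, normalised value, linear from 0) of 9 members in each of the 12 libraries (points), with group means and SDs (n = 3), for the 6 members that rose against each control on every scaling and for PYCR1, SLC1A4 and ALDH18A1, which fell against each control on this scale. GARS reaches 23010 to 27763 in TFEB doxycycline against at most 4826 elsewhere, and PYCR1 59.7 to 71.3 against at least 143.

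Among the enzymes, CTH, which releases cysteine from cystathionine, rose most of all members within the TFEB line. Its deposited value was 433, 617 and 307 in EV vehicle, 246, 128 and 70.9 in EV doxycycline, 216, 272 and 312 in TFEB vehicle, and 2138, 4771 and 3349 in TFEB doxycycline. Every TFEB doxycycline library exceeded every other library, and replicate 1 was the lowest of the 3. CTH rose by 3.62 ± 0.49 on the deposited scale (limma adjusted p = 9.5e-08) and by 2.87 ± 0.18 on the expressed-gene scale, where the ratio of the means was 7.41. CBS, the enzyme before CTH in the same pathway, was at 1.10 ± 0.43 on the deposited scale (limma adjusted p = 0.058) and at 0.35 ± 0.23 on the expressed-gene scale, and passed on neither.

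ASNS, asparagine synthetase, had deposited values of 1379, 2529 and 1060 in EV vehicle, 673, 389 and 155 in EV doxycycline, 654, 1197 and 1082 in TFEB vehicle, and 3170, 6294 and 5016 in TFEB doxycycline. It rose by 2.29 ± 0.55 on the deposited scale (limma adjusted p = 0.0016) and by 1.54 ± 0.16 on the expressed-gene scale, with no overlap between TFEB doxycycline and the other libraries. The proline enzymes went the other way. PYCR1, which makes proline in mitochondria, had deposited values of 316, 625 and 231 in EV vehicle, 128, 94.8 and 47.5 in EV doxycycline, 186, 325 and 214 in TFEB vehicle, and 81.7, 129 and 80.7 in TFEB doxycycline. TFEB doxycycline lay below both vehicle groups and overlapped with EV doxycycline.

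PYCR1 fell by 1.30 ± 0.41 against TFEB vehicle on the deposited scale (limma adjusted p = 0.017), a call kept in 9 of 12 fits that left out 1 library, and fell by 2.04 ± 0.20 on the expressed-gene scale. ALDH18A1, the enzyme before it, was at -0.51 ± 0.49 on the deposited scale, which did not pass, and fell by 1.26 ± 0.14 on the expressed-gene scale. Its expressed-gene-scaled value was 609 to 861 in TFEB vehicle and 268 to 298 in TFEB doxycycline, below all 9 control libraries.

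Of the 5 serine and one-carbon enzymes 1 rose within the TFEB line on the deposited scale and 2 on the expressed-gene scale. Among expressed genes 31.5% and 34.4% rose on these scales, so the counts were near that background. The medians of the 5 were 1.32 and 0.57, against 0.73 and -0.02 for expressed genes. PSPH, the last step of serine synthesis, rose by 1.36 ± 0.39 on the deposited scale and by 0.62 ± 0.23 on the expressed-gene scale, the latter kept in 5 of 12 fits that left out 1 library. Reads of PSPH and CBS can be shared with near-identical copies, so their values are uncertain. MTHFD2 was at 1.47 ± 0.59 on the deposited scale (limma adjusted p = 0.065) and rose by 0.72 ± 0.20 on the expressed-gene scale. PHGDH, PSAT1 and SHMT2 passed on neither scale, with expressed-gene changes of -0.09 ± 0.14, 0.33 ± 0.24 and 0.57 ± 0.29. PSAT1 was uneven, at 892 in TFEB doxycycline replicate 1 and 1942 and 1957 in replicates 2 and 3 on the expressed-gene scale.

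Of the transporters, the 2 chains of the large neutral amino acid exchanger rose together, SLC7A5 by 1.78 ± 0.59 and SLC3A2 by 1.57 ± 0.52 on the deposited scale (limma adjusted p = 0.023 for both). SLC7A5 was 2831, 5140 and 1794 in EV vehicle, 1167, 534 and 200 in EV doxycycline, 1378, 2376 and 1746 in TFEB vehicle, and 5257, 8336 and 5254 in TFEB doxycycline on that scale. Its TFEB doxycycline libraries were above all others, though the lowest was close to EV vehicle replicate 2. SLC7A5 rose by 1.03 ± 0.21 and SLC3A2 by 0.82 ± 0.15 on the expressed-gene scale. SLC7A1, a carrier of cationic amino acids, rose by 1.68 ± 0.61 and 0.93 ± 0.23 on the deposited and expressed-gene scales. On the deposited scale these calls were kept in 8 (SLC7A5), 7 (SLC3A2) and 4 (SLC7A1) of 12 fits that left out 1 library.

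SLC1A4, an exchanger of small neutral amino acids such as alanine and serine, had deposited values of 2018, 3679 and 1144 in EV vehicle, 1115, 582 and 215 in EV doxycycline, 1014, 1762 and 1108 in TFEB vehicle, and 569, 681 and 401 in TFEB doxycycline. TFEB doxycycline was below both vehicle groups and overlapped with EV doxycycline. Within the TFEB line SLC1A4 was at -1.22 ± 0.55 on the deposited scale (limma adjusted p = 0.11) and fell by 1.97 ± 0.23 on the expressed-gene scale. SLC6A9, a glycine carrier, was at -0.06 ± 0.37 on the deposited scale and fell by 0.80 ± 0.25 on the expressed-gene scale, kept in 8 of 12 fits that left out 1 library. SLC7A11, the cystine chain of its exchanger, SLC1A5, a glutamine carrier, and SLC38A2, a carrier of small neutral amino acids, passed on neither scale, with expressed-gene changes of 0.03 ± 0.29, -0.29 ± 0.29 and 0.33 ± 0.14.

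Doxycycline alone, in the EV line, went with lower values. Against EV vehicle, 35 of 38 members fell and 0 rose on the deposited scale (limma), where 23.3% of tested genes fell and 3.39% rose, and the members' median was -1.96. Among expressed genes on that scale 51.2% fell. Relative to expressed genes 28 fell and 0 rose, where 17.5% of expressed genes fell and 20.9% rose, with a median of -0.67. These 28 were called lower under each of the 4 scalings. With the replicate number as a block 37 fell on the deposited scale, PSPH and SLC6A9 in addition, and 31 on the expressed-gene scale. EV doxycycline lay below all EV vehicle libraries for 31 members on the deposited scale and 26 on the expressed-gene scale, against 57.4% and 22% of expressed genes.

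SLC7A5 fell most of all members on both scales in that comparison, by 2.57 ± 0.59 (deposited) and 1.28 ± 0.21 (expressed-gene). Scaled to expressed genes it was 2374, 2335 and 1807 in EV vehicle and 1299, 839 and 642 in EV doxycycline, which do not overlap. FARSA, PSAT1 and IARS fell by 1.11 ± 0.21, 1.06 ± 0.24 and 1.03 ± 0.14 on that scale, and FARSB by 1.01 ± 0.12. On the expressed-gene scale 16 of 20 synthetases fell, where 17.5% of expressed genes fell. Of the enzymes SHMT2, MTHFD2, ASNS, PYCR1 and ALDH18A1 fell by 0.83, 0.98, 0.88, 0.81 and 0.69, and of the transporters SLC7A1, SLC1A5 and SLC1A4 by 0.97, 0.84 and 0.68. CARS, which rose in the TFEB line, was at -1.18 ± 0.52 (deposited, limma adjusted p = 0.077) and 0.11 ± 0.12 (expressed-gene), and passed on neither.

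The deposited-scale count in the EV line rests on few libraries: 2 members fell when EV vehicle replicate 2, the deepest library, was left out, and 15 when EV doxycycline replicate 3, the shallowest, was. The count on the expressed-gene scale was 20 to 31 over the 12 fits that left out 1 library. EV doxycycline also had the largest share of mitochondrial reads, 30.4 ± 3.70% against 23.8 ± 2.77% in EV vehicle (SD, n = 3), and the largest share from genes with a mean under 200, 12.5 ± 5.09% against 6.19 ± 1.52%. The promyelocyte markers summed to 5177 to 30405 in EV doxycycline and 66159 to 217430 in EV vehicle on the deposited scale. The part of these differences in the members' values was not tested.

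**Figure D3:**
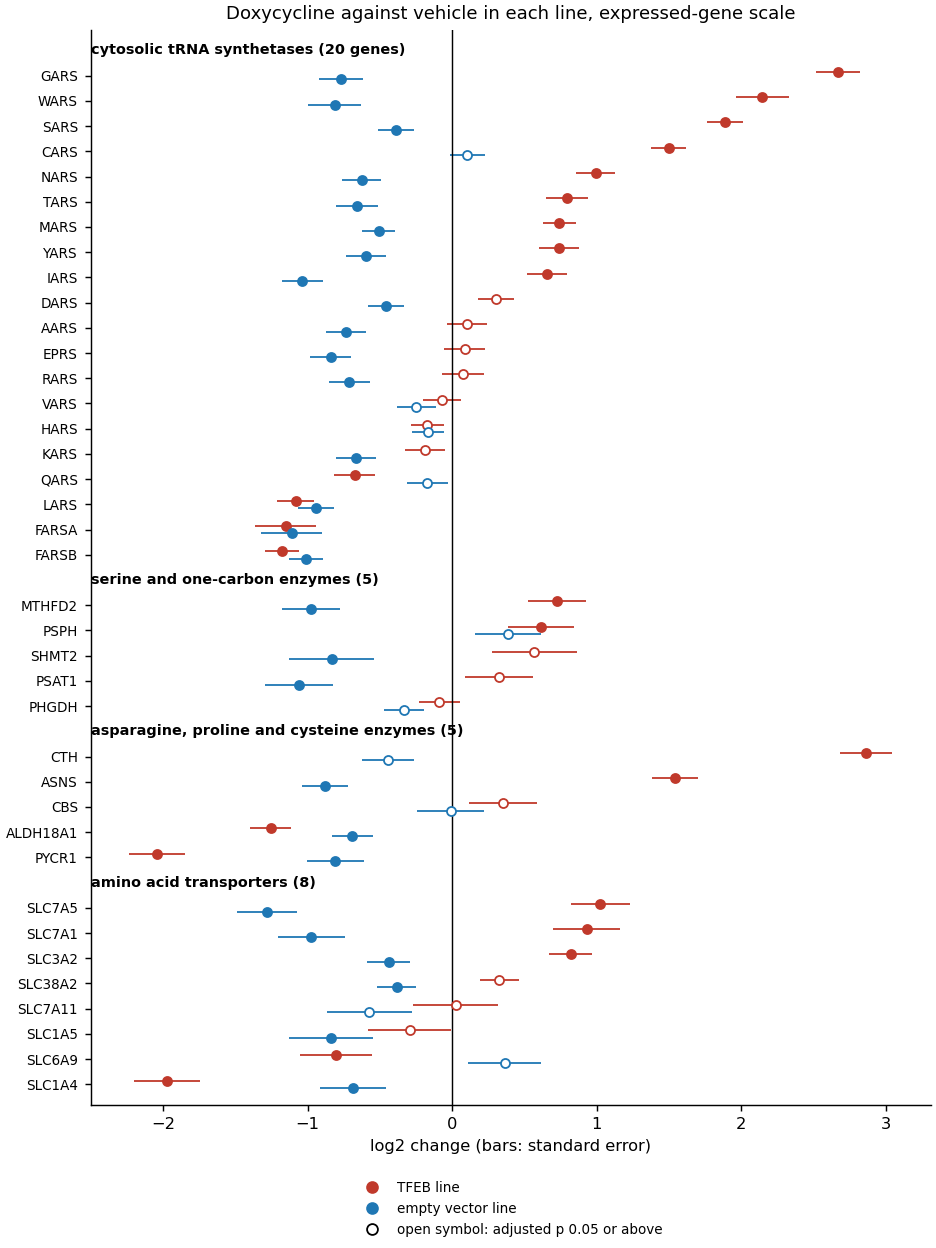
Log2 change with doxycycline of each of the 38 members in the TFEB line and in the empty vector line (x axis, expressed-gene scale, bars are standard errors), by role; open symbols did not pass. In the empty vector line 28 members fell and 0 rose, where 17.5% of expressed genes fell and 20.9% rose. In the TFEB line 16 rose and 8 fell, where 34.4% of expressed genes rose and 33.2% fell.

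With both lines on doxycycline, 30 members were higher in TFEB than in EV and 0 were lower on the deposited scale (limma), where 27.2% of tested genes were higher and 5.37% lower. Among expressed genes 55.8% were higher on that scale. The members' median was 2.06, and all 38 lay above 0. On the expressed-gene scale 23 were higher and 6 lower, where 36.4% of expressed genes were higher and 35.4% lower, with a median of 0.68. GARS led with 4.69 ± 0.58 (deposited) and 3.31 ± 0.15 (expressed-gene), followed by CTH with 4.62 ± 0.49 and 3.25 ± 0.18. The 6 that were lower on the expressed-gene scale were QARS, FARSB, ALDH18A1, PYCR1, SLC1A4 and SLC6A9, from -0.32 ± 0.12 (FARSB) to -1.32 ± 0.23 (SLC1A4). This comparison shares its TFEB doxycycline libraries with the one within the TFEB line and its EV doxycycline libraries with the one within the EV line.

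The interaction of vector and doxycycline, which is the change with doxycycline in the TFEB line minus that in the EV line, was called above 0 for 31 members and below 0 for none on the deposited scale (limma), where 29.2% of tested genes were called above and 6.15% below. Among expressed genes 62.6% were called above on that scale. On the expressed-gene scale 23 were called above and 5 below, where 31.1% of expressed genes were called above and 29.9% below. The members' medians were 2.85 and 0.81. The largest were GARS (5.48 ± 0.82 deposited, 3.44 ± 0.22 expressed-gene) and CTH (5.34 ± 0.69 and 3.31 ± 0.25). All 5 serine and one-carbon enzymes were called on the deposited scale, and PSAT1, SHMT2 and MTHFD2 also on the expressed-gene scale. For IARS, SLC7A5 and SLC7A1 the interaction on the expressed-gene scale (1.69 ± 0.20, 2.30 ± 0.29 and 1.90 ± 0.33) was made up of a rise in the TFEB line and a fall in the EV line that both passed. The same held for GARS, MARS, NARS, SARS, TARS, WARS, YARS, MTHFD2, ASNS and SLC3A2. The 5 called below 0 on that scale were QARS, ALDH18A1, PYCR1, SLC1A4 and SLC6A9.

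Without doxycycline the lines were not told apart by these genes. Between TFEB vehicle and EV vehicle 0 members were called higher and 0 lower on either scale (limma), as were 0% of the genes tested. The smallest adjusted p among members was 0.45 on the deposited and 0.55 on the expressed-gene scale, and 0 members had an unadjusted p under 0.05 in limma, edgeR or DESeq2. The medians were -0.72 (deposited) and -0.06 (expressed-gene).

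As a share of the reads on expressed nuclear genes, the 38 members together took 0.911%, 0.895% and 0.837% in EV vehicle, 0.672%, 0.601% and 0.535% in EV doxycycline, 0.861%, 0.853% and 0.780% in TFEB vehicle, and 1.23%, 1.23% and 1.22% in TFEB doxycycline. TFEB doxycycline was above and EV doxycycline below every other library. No test was run on these shares, and the smallest p an exact two-sided permutation test of 3 libraries against 3 allows is 0.1. The synthetases together carried most of the difference, with 0.502% to 0.541% in the vehicle groups, 0.355% to 0.391% in EV doxycycline and 0.851% to 0.860% in TFEB doxycycline. On the expressed-gene scale GARS was 3744 to 4533 in TFEB vehicle and 23010 to 27763 in TFEB doxycycline. WARS was 3765 to 5054 and 18744 to 21713, and these were the largest of the synthetases in TFEB doxycycline. Of the 20, 9 rose and 4 fell within the TFEB line on that scale, so the sum does not describe each synthetase. The asparagine, proline and cysteine enzymes together took 0.0312% to 0.0375% in the vehicle groups, 0.0237% to 0.0254% in EV doxycycline, and 0.0516%, 0.0681% and 0.0707% in TFEB doxycycline, again with no overlap. Among them CTH and ASNS rose within the TFEB line on the expressed-gene scale, PYCR1 and ALDH18A1 fell, and CBS did not pass. The share of the transporters in TFEB doxycycline, 0.166% to 0.194%, lay within the range of the vehicle groups, 0.141% to 0.204%, and so did that of the serine enzymes apart from replicate 1.

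**Figure D4:**
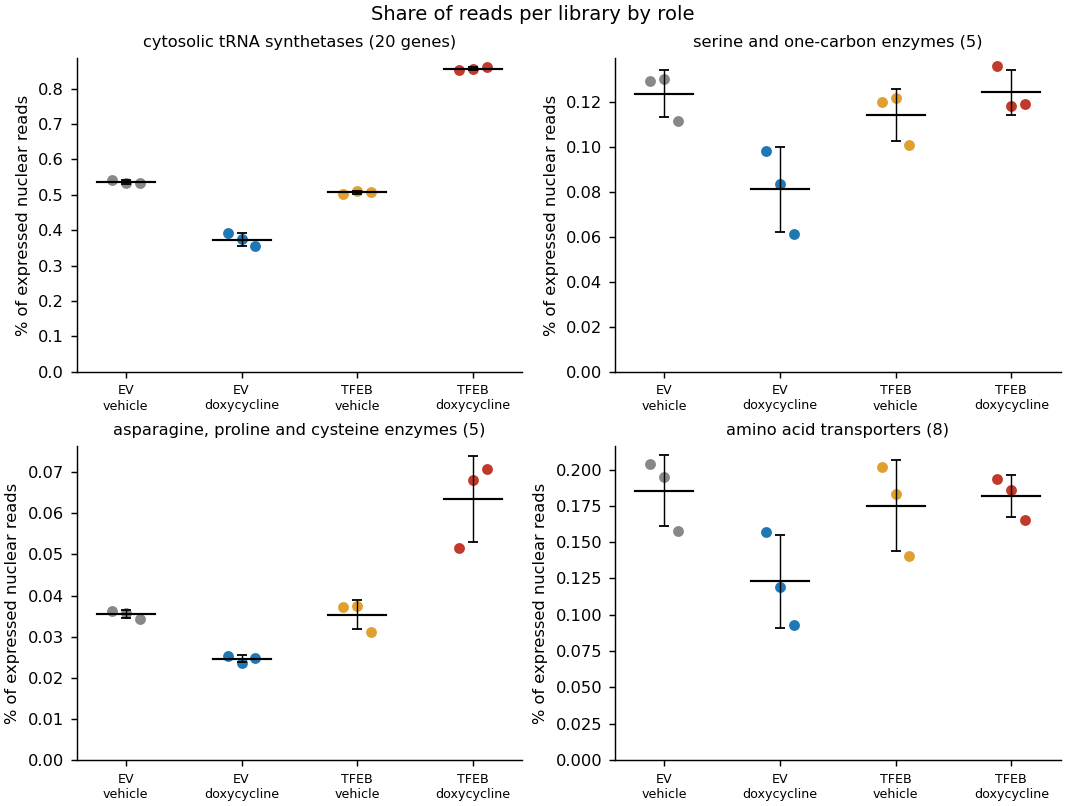
Percent of expressed nuclear reads (y axis, linear from 0) taken by each of the 4 roles in each of the 12 libraries (points), with group means and SDs (n = 3). The 20 synthetases sum to 0.851% to 0.860% in TFEB doxycycline and at most 0.541% elsewhere, while the 8 transporters in TFEB doxycycline overlap with both vehicle groups. A sum does not show how single genes of a role changed.

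Genes of the same pathways outside the 38 were read from lists chosen for their function. In TFEB doxycycline against TFEB vehicle, the comparison used for all these lists, 31.5% of expressed genes rose and 3.51% fell on the deposited scale. On the expressed-gene scale 34.4% rose and 33.2% fell. Of the 12 genes of the ATF4 axis, 6 rose and 0 fell in TFEB doxycycline against TFEB vehicle on the deposited scale, and 8 rose and 3 fell on the expressed-gene scale. ATF4 itself was 17892, 24242 and 17879 in TFEB doxycycline and 5128 to 8840 in TFEB vehicle on the deposited scale, at 1.45 ± 0.59 (limma adjusted p = 0.072), and rose by 0.70 ± 0.16 on the expressed-gene scale. DDIT3 and PPP1R15A, which encode CHOP and the eIF2 phosphatase subunit GADD34, rose by 3.97 ± 0.49 and 4.57 ± 0.45 on the deposited scale. TRIB3, an inhibitor of ATF4, SESN2, a leucine sensor, and CHAC1, which degrades glutathione, rose by 2.86 ± 0.57, 2.34 ± 0.49 and 1.80 ± 0.44 on that scale, and all 5 rose on the expressed-gene scale too. ATF5 was at -0.04 ± 0.60 on the deposited scale and fell by 0.79 ± 0.19 on the expressed-gene scale. EIF2AK4, the gene of GCN2, was at 0.28 ± 0.50 on the deposited scale and at -0.47 ± 0.11 on the expressed-gene scale, where it fell.

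The mitochondrial synthetases, a separate set of genes that charge tRNA in mitochondria, did not follow the cytosolic ones. Of 17, 0 rose and 0 fell on the deposited scale, and 1 (CARS2) rose and 8 fell on the expressed-gene scale, with medians of -0.05 and -0.78. Their share of expressed nuclear reads was 0.034% to 0.038% in TFEB doxycycline and 0.046% to 0.069% in the 9 other libraries. Mitochondrial transcripts also took the smallest share of reads in TFEB doxycycline, 16.0 ± 2.38% (SD, n = 3), whose part in this was not tested. Of 3 scaffold proteins of the multisynthetase complex, AIMP1 rose, by 2.48 ± 0.51 (deposited) and 1.73 ± 0.15 (expressed-gene), and AIMP2 and EEF1E1 passed on neither scale.

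Of 18 other amino acid enzymes 3 rose and 0 fell on the deposited scale, and 3 rose and 6 fell on the expressed-gene scale. Among those that rose were GOT1, an aspartate transaminase, and BCAT1, a transaminase of branched-chain amino acids, with 2.75 ± 0.48 and 2.04 ± 0.58 on the deposited scale. Of 10 other plasma membrane transporters 3 rose and 0 fell on the deposited scale, and 2 rose and 5 fell on the expressed-gene scale. In neither of these lists was a rise more frequent than among expressed genes (31.5% deposited, 34.4% expressed-gene). SLC38A1, a glutamine carrier, rose by 2.46 ± 0.59 and SLC7A7 by 2.01 ± 0.33 on the deposited scale. SLC16A10 rose by 0.87 ± 0.31 on that scale from values of 41.8 to 76.7 in TFEB vehicle, and did not pass on the expressed-gene scale. Of 7 lysosomal amino acid transporters 6 rose and 0 fell on the deposited scale, and 6 rose and 1 (SLC38A9) fell on the expressed-gene scale. SLC15A4, SLC38A7 and SLC36A1, which carry histidine and peptides, glutamine, and small neutral amino acids out of the lysosome, rose by 4.19 ± 0.47, 3.73 ± 0.44 and 3.71 ± 0.47 on the deposited scale. The median of this list on the expressed-gene scale was 2.88, against 0.18 for the 8 plasma membrane transporters among the members.

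**Figure D5:**
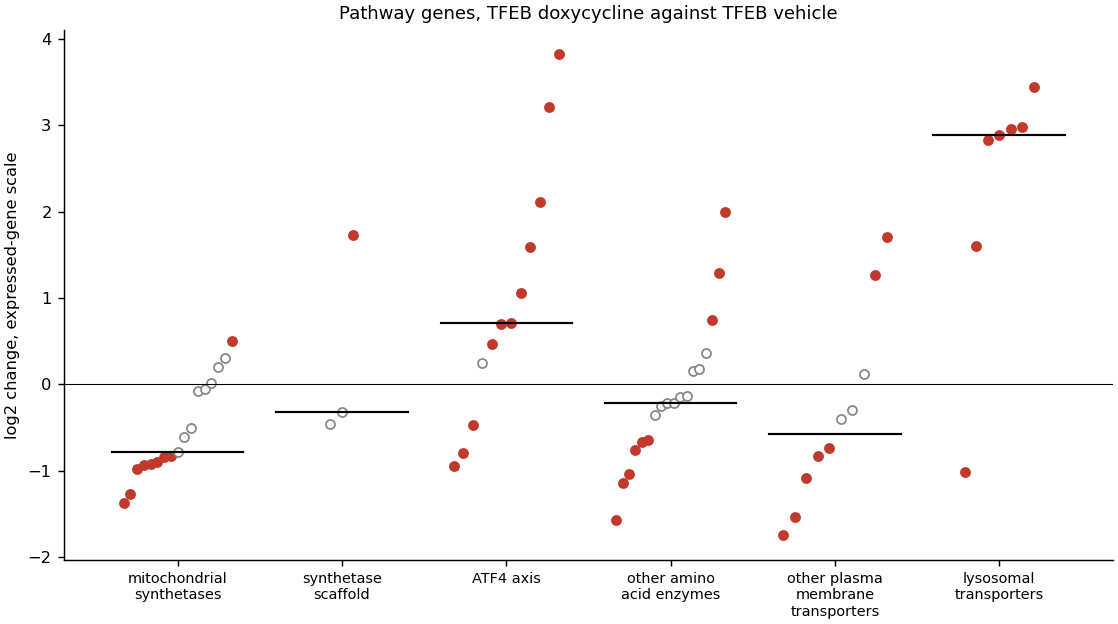
Log2 change in TFEB doxycycline against TFEB vehicle on the expressed-gene scale (y axis) for the genes of 6 pathway lists outside the 38 (points; filled points passed, bars are list medians). The lysosomal transporters have a median of 2.88 and the mitochondrial synthetases one of -0.78.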

How the data were processed

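The tools named, per the submitters' processing notes, are HTSeq 0.6.1 and STAR 2.5.3a. Build, annotation and strand setting: not given in the sources used here. The deposited table holds a normalised signal per gene and library, which the lower values show to be reads divided by 1 factor per library. Of these lower values, the only ones checked, 100% were whole multiples of 1 step at a tolerance of 0.01. Whole reads were recovered from the table for all values. The step of 2 libraries differs from 1 by under 1%, so rounding could have given the same whole numbers there. No position came from the table, and antisense genes and near-identical copies are uncertain.

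The 23128 genes with a mean of at least 10 entered limma 3.58.1 (R 4.3.3) as log2(value + 1), with 1 mean per group over 12 samples, a variance trend, two-sided tests and Benjamini-Hochberg adjustment over all of them. Fold changes of low genes are understated on this scale. Count tests on the recovered reads (DESeq2 1.42.0, edgeR 4.0.16), other scalings, pseudocounts and filters, fits of the compared groups, a replicate block and each library left out were alternatives. The procedure was tested on simulated data. The simulated libraries had near equal expected totals after normalisation, unlike the deposited ones, so the effect of unequal totals was not covered. The genes named outside the members are the integrated stress response genes chosen by name and up to 3 called genes with the largest change of each pathway list, of which 1 is not reported here; CARS2, SLC38A9, AIMP2 and EEF1E1 were named after their values were seen. Same-numbered libraries deviated together (r over 0.1 in 3 of 3 pairs) between EV vehicle and EV doxycycline (0.208 to 0.720) and between EV vehicle and TFEB vehicle (0.457 to 0.626), but not in all 3 pairs of any other groups, and no label names a shared batch, so the block remained an alternative. These r were taken over the expressed genes on the deposited scale, where an offset shared by all genes of a library drops out. Whether they reflect a shared batch was not tested. The differently numbered EV vehicle replicate 2 and EV doxycycline replicate 1 reached 0.610. The members, lists and tests were chosen with earlier results of these data known.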

Additional observations from a re-analysis of the deposited data

Results flagged for a closer look

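The change with doxycycline differed between the TFEB line and the empty vector line for 31 members by the interaction term on the deposited scale (limma adjusted p under 0.05; log2 difference, TFEB line minus empty vector line, n = 3 per group). Among the synthetases it was 5.48 for GARS, 5.0 for WARS, 4.32 for SARS, 3.73 for IARS, 3.66 for NARS, 3.49 for TARS, 3.43 for CARS, 3.38 for YARS, 3.29 for MARS, 2.97 for EPRS, 2.88 for AARS, 2.82 for RARS, 2.80 for DARS, 2.52 for KARS, 2.22 for VARS, 2.03 for HARS and 1.87 for FARSB. Among the enzymes it was 5.34 for CTH, 4.46 for ASNS, 3.74 for MTHFD2, 3.44 for SHMT2, 3.42 for PSAT1, 2.39 for CBS, 2.28 for PHGDH and 2.25 for PSPH. Among the transporters it was 4.34 for SLC7A5, 3.94 for SLC7A1, 3.30 for SLC3A2, 2.75 for SLC38A2, 2.64 for SLC7A11 and 2.58 for SLC1A5. The median over expressed genes on this scale was 2.04, so values near it did not stand apart from expressed genes in general, and 23 of the 31 were called on the expressed-gene scale too.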

How the results depend on the processing

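The counts of members called on the deposited scale depended on the processing, and the cause was not tested. Within the TFEB line 13 members rose; it was 8 with no filter on low genes, 21 with only the compared groups in the fit, 20 with edgeR and 21 with DESeq2 on the recovered reads, and 6 to 18 with each library left out (6 when it was TFEB vehicle replicate 1, or replicate 2 of TFEB doxycycline). The 1 that fell became 3 with TMM, 12 with equal nuclear totals, 8 with the expressed-gene scaling, 2 with only the compared groups, 4 with edgeR and 2 with DESeq2, and 0 to 2 with each library left out. Against EV doxycycline the 30 became 19 with equal nuclear totals, and the 0 that were lower became 8 with equal nuclear totals and 6 with the expressed-gene scaling. In the EV line the 35 became 12 with only the compared groups and 2 (without EV vehicle replicate 2) to 38 with each library left out, or 20 to 31 on the expressed-gene scale. Against each control the 6 became 3 with no filter, 14 with TMM or the expressed-gene scaling, 15 with edgeR and 4 to 6 with each library left out, and the 0 lower became 8 with equal nuclear totals and 5 with the expressed-gene scaling. For the interaction the 0 below became 6 with equal nuclear totals and 5 with the expressed-gene scaling (3 to 5 with each library left out). The members' share of reads was 0.810% and 0.617% in EV vehicle, 0.496% and 0.348% in EV doxycycline, 0.737% and 0.541% in TFEB vehicle, and 1.15% and 0.965% in TFEB doxycycline when taken over nuclear reads and all reads.

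Signs that turned are given where the gene was called on the deposited scale or under the alternative. With equal nuclear totals these turned within the TFEB line: HARS (-0.48), KARS (-0.49), QARS (-0.98), VARS (-0.37), PHGDH (-0.39), EIF2AK4 (-0.77) and SLC16A10 (-0.18). Against EV doxycycline these turned: HARS (-0.32), LARS (-0.62), QARS (-0.82), VARS (-0.21), FARSB (-0.66), PHGDH (-0.17), PSPH (-0.18), ALDH18A1 (-0.91), PYCR1 (-1.51), SLC1A4 (-1.66) and SLC6A9 (-1.19). For the interaction these did: HARS (-0.28), QARS (-0.78), VARS (-0.10), FARSB (-0.44), PHGDH (-0.035), PSPH (-0.049), ALDH18A1 (-0.84), PYCR1 (-1.51), SLC1A4 (-1.56) and SLC6A9 (-1.44). With the expressed-gene scaling QARS (-0.67) and EIF2AK4 (-0.47) turned within the TFEB line, QARS (-0.48), FARSB (-0.32), ALDH18A1 (-0.57), PYCR1 (-1.18), SLC1A4 (-1.32) and SLC6A9 (-0.86) against EV doxycycline, and HARS (-0.0051), QARS (-0.50), FARSB (-0.17), ALDH18A1 (-0.57), PYCR1 (-1.23), SLC1A4 (-1.29) and SLC6A9 (-1.16) for the interaction. Members that turned but were called under neither numbered 6, 1 and 2 in these 3 comparisons with equal nuclear totals, 5, 2 and 2 with the expressed-gene scaling, and 1, 2 and 2 with TMM. In the EV line 3 such members (CARS, PSPH and SLC6A9) turned with each of the first 2.

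Over all groups same-numbered libraries correlated from -0.22 to 0.72 (18 pairs) in their deviations from the group means, and differently numbered ones from -0.70 to 0.61 (36 pairs). With the replicate block 17 members rose and 1 fell within the TFEB line, 31 were higher against EV doxycycline, 37 fell in the EV line, 33 were called in the interaction and 6 against each control, so no count moved by over 1.5 times.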
